A study of Solenopsis invicta with 64 samples.

Results

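Ovaries of fire ant gynes that carry 1 copy of the supergene variant Sb (SB/Sb) were compared with ovaries of gynes that carry none (SB/SB), all from polygyne colonies. The comparison holds 15 of the 64 libraries of the series: 8 SB/Sb and 7 SB/SB polygyne ovaries, each from the single ovary of a different animal. They were chosen by genotype, social form and tissue as labelled, and the eighth SB/SB ovary, of animal 104D, was left out because it held only 73569 counts. Gynes are winged queens that have not yet mated; the animals of Solenopsis invicta, the red imported fire ant, were labelled reproductively mature and were caught in the field on days of mating flights. The labels list no treatment for any animal. The series also holds 8 Sb/Sb polygyne ovaries, 8 SB/SB ovaries from monogyne colonies and the brains of the same 32 animals, which are used below for reference. Nothing in the labels says which animals shared a colony, so every p-value treats the animals as independent. Some numbers in the sample titles recur in both genotypes without a stated meaning, and the main fit did not use them.

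The supergene is a long block of genes on chromosome 16 in which SB and Sb rarely recombine, so that its genes are inherited as a unit. Colonies with a single egg-laying queen (monogyne) hold SB/SB queens, while colonies with several queens (polygyne) are built around queens that carry Sb. A gyne with 1 Sb copy therefore carries both variants of the block. The ovary of a fire ant gyne makes eggs and fills them with yolk, which its oocytes take up through the vitellogenin receptor.

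Expression is given as counts per M counts (CPM, where M is the prefix mega) scaled with TMM factors, which correct for differences in composition between libraries. CPM is not corrected for gene length, so a level in CPM compares animals at 1 gene, and an order of genes by CPM is one of counts and not of transcripts. The 15 libraries held 11.8 to 21 M counts, with a mean of 16.5 ± 3.11 M in SB/Sb (SD, n = 8) and 17.1 ± 2.91 M in SB/SB (SD, n = 7). Totals did not separate the genotypes (two-sided exact permutation test, p = 0.681, adjusted over 9 library measures p = 0.875). The labelled tissue was checked with 2 genes known by name. The vitellogenin receptor (LOC105200757) lay between 23.4 and 624 CPM in these ovaries and averaged 4.57 CPM in the brains of SB/Sb animals and 3.94 CPM in those of SB/SB animals. The odorant-binding protein LOC105203994 averaged 1385 CPM in the SB/Sb brains and 3.72 CPM in the SB/Sb ovaries. No other ovary, muscle or fat body marker could be identified by name in the gene table, so the share of other tissue in a dissected ovary was not tested. In bulk ovary RNA, more cells of a type and more RNA per cell cannot be told apart.

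SB/Sb ovaries carried RNA from more genes than SB/SB ovaries. Between 11803 and 12187 genes had at least 1 count in the SB/Sb libraries, with a median of 11886, and between 11528 and 11794 in the SB/SB libraries, with a median of 11655. The groups did not overlap, and their means of 11907 ± 125 (SD, n = 8) and 11653 ± 88.1 (SD, n = 7) differed by 254 genes (two-sided exact permutation test, p = 0.000311, the smallest this design allows, adjusted p = 0.0014). With every library thinned to 11809201 counts, the total of the shallowest, the ranges were 11634 to 12014 in SB/Sb and 11395 to 11611 in SB/SB, again without overlap, with a difference of 283 genes (exact permutation p = 0.000311). The library with the most genes detected was the SB/Sb ovary of animal 15A.

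The ovaries also varied in a way that did not follow the genotype. Component 1 of a principal component analysis, with 39% of the variance, did not separate SB/Sb from SB/SB (exact permutation p = 0.943, adjusted p = 0.943). At its low end lay the SB/SB ovaries 1E, 16D and 15D and the SB/Sb ovaries 16C and 104A, whose vitellogenin receptor levels of 624, 543, 302, 551 and 251 CPM were the highest of the 15. The other ovaries lay between 23.4 and 111 CPM. The receptor averaged 152 ± 175 CPM in SB/Sb (SD, n = 8) and 244 ± 249 CPM in SB/SB (SD, n = 7), a log2 fold change of -0.68 ± 0.71 (SE) that did not pass the test (edgeR, adjusted p = 0.811). The second component took 17% of the variance and separated the genotypes, from -9.65 to 83.5 in SB/Sb and from -30 to -13.4 in SB/SB (exact permutation p = 0.000311, adjusted p = 0.0014). The SB/Sb ovaries 15A, at 83.5, and 5A, at 48.4, lay farthest out on it.

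**Figure D1:**
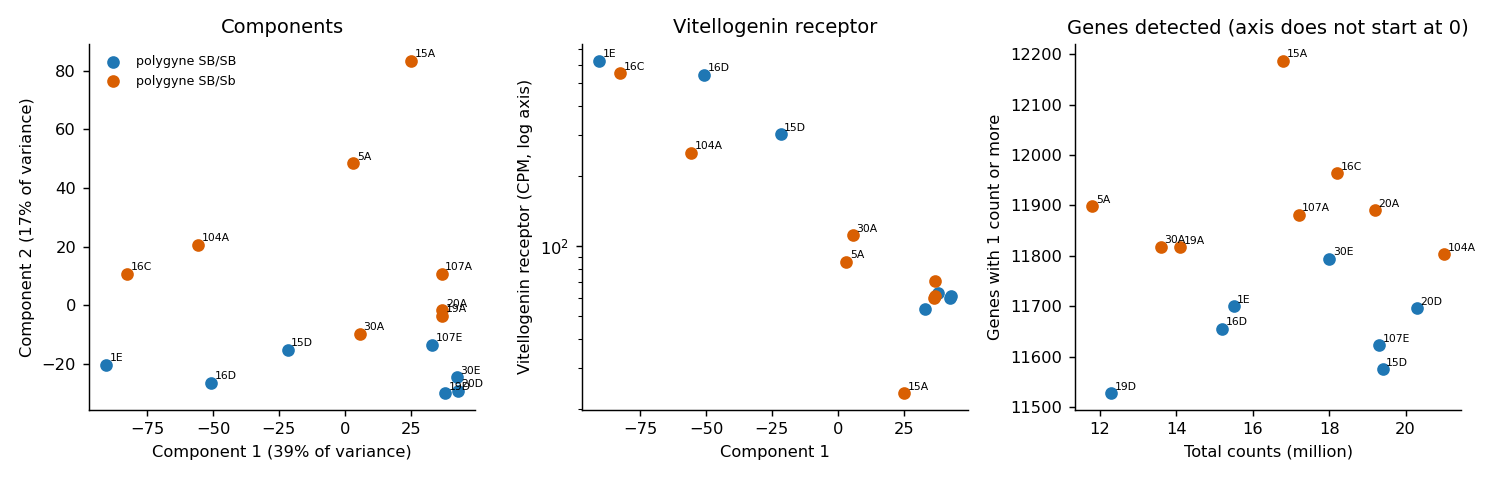
The 15 ovary libraries by their leading components (left), by component 1 and vitellogenin receptor CPM on a log axis (middle) and by total counts in M and genes with at least 1 count (right); each point is an animal, orange for SB/Sb and blue for SB/SB. The receptor was highest at the low end of component 1 in both genotypes, and SB/Sb ovaries lay above SB/SB ovaries in genes detected and on component 2.

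One Sb copy went with higher expression far more often than with lower expression. Of 10210 genes tested, 80 were called at an adjusted p under 0.05 (edgeR quasi-likelihood F-test, Benjamini-Hochberg), which is 0.784% of the genes tested: 74 were higher in SB/Sb (0.725%) and 6 were lower (0.0588%). The median log2 fold change was 2.02 among the higher genes and -0.98 among the lower, against -0.01 over all genes tested. Of the higher genes, 37 differed by 4-fold or more and 8 by less than 2-fold. At an unadjusted p under 0.05 there were 1112 genes, 715 higher and 397 lower. DESeq2 called 2.38% of the genes (2.11% higher, 0.274% lower), limma voom 1.87% (1.56% and 0.313%), and a fit that also drew on the other ovary groups 1.66% (1.53% and 0.13%). The count of calls moved with single libraries, from 32 to 88 when each was left out in turn. It was 32 without the SB/Sb ovary 104A, 49 without 107A, 38 without 15A and 34 without 5A, and among the SB/SB ovaries 34 without 107E, 36 without 15D, 48 without 16D, 36 without 19D, 36 without 20D and 35 without 30E. Of the 80 genes, 27 were called in all 15 of these fits, 25 higher and 2 lower.

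In 58 of the 80 called genes the 2 groups of ovaries did not overlap at all, 53 higher and 5 lower. Over all genes tested, every SB/Sb ovary lay above every SB/SB ovary at 73 genes (0.715%) and below at 11 (0.108%). SB/Sb ovaries 15A and 5A supplied many of the highest values: among the 74 higher genes, the top SB/Sb value was in 15A for 39 and in 5A for 19. How often 15A and 5A held the top SB/Sb value over all genes tested was not counted, so this is a description only. Without both of these libraries 32 genes were called, 29 higher and 3 lower, of which 29 were among the 80.

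The clearest differences were genes that were silent or nearly so without Sb. At 22 of the 74 higher genes every SB/SB ovary lay under 1 CPM. How many of all genes tested lay so low in SB/SB was not counted. A gene near 0 in every SB/SB ovary can pass the filter on low counts only through the SB/Sb ovaries. LOC105205139, on chromosome 2, had the smallest p of all genes. It lay at 0 CPM in the SB/SB ovaries 107E, 15D and 20D and at 0.0584 in 30E, 0.0645 in 16D, 0.0829 in 19D and 0.122 in 1E. In SB/Sb its lowest, median and highest values were 7.13, 12.2 and 15.5 CPM, so that every SB/Sb ovary stood far above every SB/SB ovary. The means were 11.6 ± 3.71 CPM (SD, n = 8) and 0.0468 ± 0.0482 CPM (SD, n = 7), a log2 fold change of 7.85 ± 0.54 (SE; edgeR, adjusted p = 1.07e-06). Its neighbour in the gene order, LOC105206713, had 1 count in all SB/SB ovaries together, in 1E, and 0.463 to 3.43 CPM in SB/Sb with a median of 1.67 (edgeR, adjusted p = 0.000102). LOC105206713 passed the filter on low counts in 8 of the 15 fits that left 1 library out and was called in each of those. The filter dropped it without 104A, 107A, 15A, 19A, 20A, 30A or 5A, all SB/Sb. Whether its call depends on any of those ovaries was therefore not tested.

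Counts were entirely missing from SB/SB ovaries at 3 of the named genes called higher. LOC105194018, on chromosome 3, lay at 1.36 to 2.9 CPM in SB/Sb with a median of 2.04, and had 0 counts in all 7 SB/SB ovaries. Against a floor of 3 counts over the whole SB/SB group, it was at least 79.8-fold higher in SB/Sb (edgeR, adjusted p = 8.86e-05). LOC105204491, on chromosome 4, was less even among SB/Sb ovaries, from 0.435 CPM in 104A to 7.04 CPM in 19A with a median of 4.98. It too had 0 counts in SB/SB and was at least 170-fold higher (edgeR, adjusted p = 0.00153). LOC105206625, which has no chromosome in the gene table, lay at 0.578 to 1.65 CPM in SB/Sb and at least 42.3-fold above SB/SB (edgeR, adjusted p = 0.000395). The filter on low counts kept LOC105204491 in 8 and LOC105206625 in 12 of the fits that left 1 library out, and each was called in all of those. With 0 counts in SB/SB, both genes pass that filter through the SB/Sb ovaries alone. LOC105204491 was dropped without 107A, 15A, 16C, 19A, 20A, 30A or 5A, and LOC105206625 without 104A, 16C or 20A. Dependence on those ovaries was therefore not tested.

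The remaining genes with the smallest p were low but measurable without Sb. LOC105196479, on chromosome 2, lay in SB/Sb at 36.6, 60.8 and 91 CPM (lowest, median, highest). In SB/SB it lay at 0.733 CPM in 107E, 1.06 in 15D, 1.17 in 30E, 1.24 in 19D, 1.29 in 20D, 2.06 in 16D and 5.77 in 1E. The groups did not overlap, and the log2 fold change was 4.98 ± 0.44 (SE; edgeR, adjusted p = 2.08e-05). LOC105198369, on chromosome 13, rose from 0.0482 ± 0.0412 CPM (SD, n = 7) to 1.25 ± 0.305 CPM (SD, n = 8), with an edgeR adjusted p of 0.000102. LOC105205051, unplaced, rose from 0.422 ± 0.123 CPM (SD, n = 7) to 2.65 ± 1 CPM (SD, n = 8), with an edgeR adjusted p of 0.000502. No role is stated for these genes, since the gene table gives no product names.

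**Figure D2:**
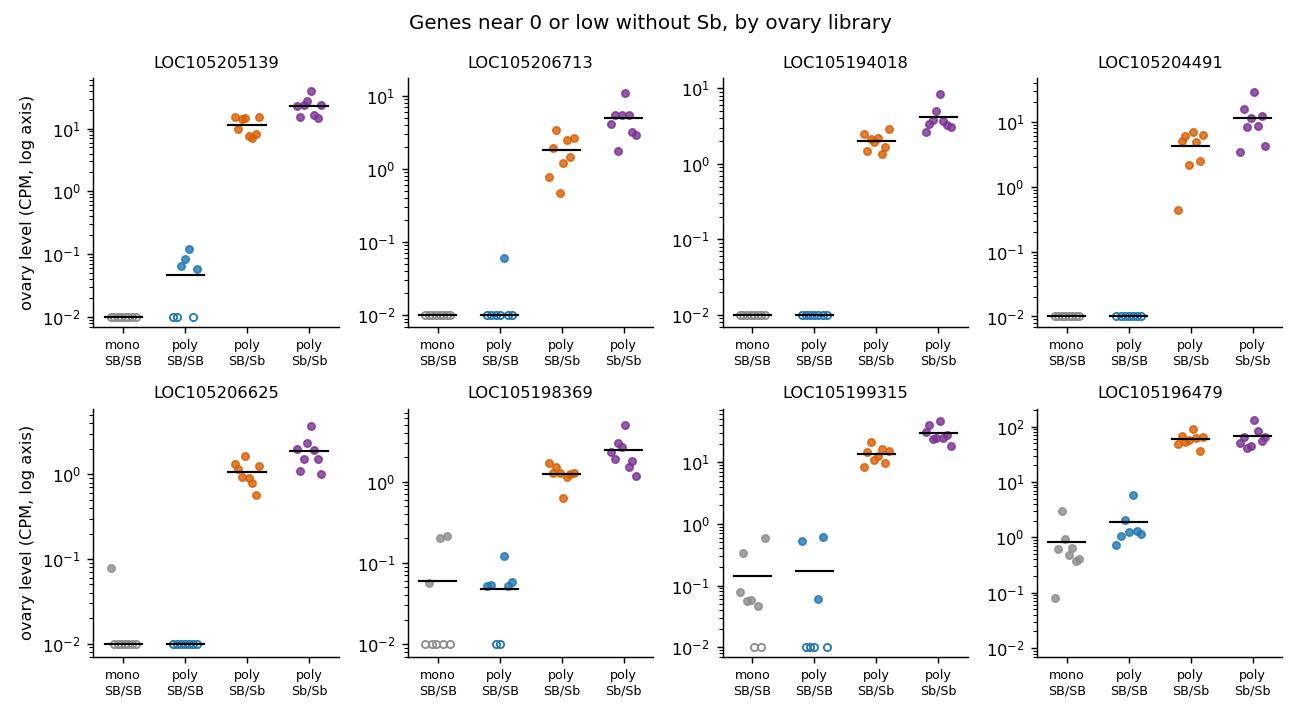
Ovary levels in CPM (log axis) of 8 genes that were silent or low without Sb, by library, in monogyne SB/SB, polygyne SB/SB without 104D, SB/Sb and Sb/Sb ovaries; open points stand at the axis floor and mark libraries with 0 counts, and bars are group means. LOC105194018 and LOC105204491 have 0 counts in every SB/SB ovary of either social form and counts in every ovary with Sb.

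A rule on raw counts found presence with Sb and near absence without it at a handful of genes. At 5 of the 15512 genes listed, all 8 SB/Sb ovaries had at least 10 counts and no SB/SB ovary had more than 3: LOC105194018, LOC105201567, LOC105203129, LOC105204491 and LOC105205139. The reverse pattern, counts in all 7 SB/SB ovaries and near none in SB/Sb, was met by 0 genes. None of the 5 genes lies on chromosome 16. At 4 of the 5 no monogyne ovary had more than 3 counts, and at 4 of the 5 every Sb/Sb ovary had at least 10.

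Other genes were well expressed without Sb and rose by a smaller factor. At 17 of the 74 higher genes the SB/SB mean was 10 CPM or more. LOC105193135, on chromosome 16, lay at 36.6, 37.3, 37.7, 45, 45.4, 46.8 and 55.7 CPM in the 7 SB/SB ovaries and 68.7 to 90.2 CPM in SB/Sb with a median of 83.6. Its groups did not overlap, and it was 1.9-fold higher in SB/Sb (log2 0.93 ± 0.12 SE; edgeR, adjusted p = 0.000502). The 4 genes with the highest mean CPM among those called higher lay higher in every SB/Sb ovary than in any SB/SB ovary, but their calls depended on single libraries.

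LOC105198932, on chromosome 15, lay at 9.18 to 49.1 CPM in SB/SB with a median of 34.8, and at 64.5 to 397 CPM in SB/Sb with a median of 74.9. Its highest value was in 15A, and the SB/Sb mean was 129 CPM with that ovary and 91.2 CPM without it (log2 1.98 ± 0.44 SE; edgeR, adjusted p = 0.0442). Its call held without 16C or 30A and was lost in the other 13 fits that left 1 library out, where the adjusted p reached 0.109. LOC105201316, also on chromosome 15, lay at 1.8 to 11.9 CPM in SB/SB and at 18.4 to 608 CPM in SB/Sb, with 608 CPM in 15A and a mean of 43.8 CPM in the others (edgeR, adjusted p = 0.0404). It was called in 5 of the 15 fits, without 15A, 16C, 19A, 20A or 30A. LOC105198308, on chromosome 12, rose from 33.9 ± 14.7 CPM (SD, n = 7) to 112 ± 70.3 CPM (SD, n = 8), with an edgeR adjusted p of 0.049, and was called in 1 of the 15 fits, without 30A. LOC105207352, unplaced, rose from 50.3 ± 8.36 CPM (SD, n = 7) to 98.4 ± 39.6 CPM (SD, n = 8), with an edgeR adjusted p of 0.0442, and was called in 2, without 20A or 30A. These 4 genes stood close to the threshold.

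**Figure D3:**
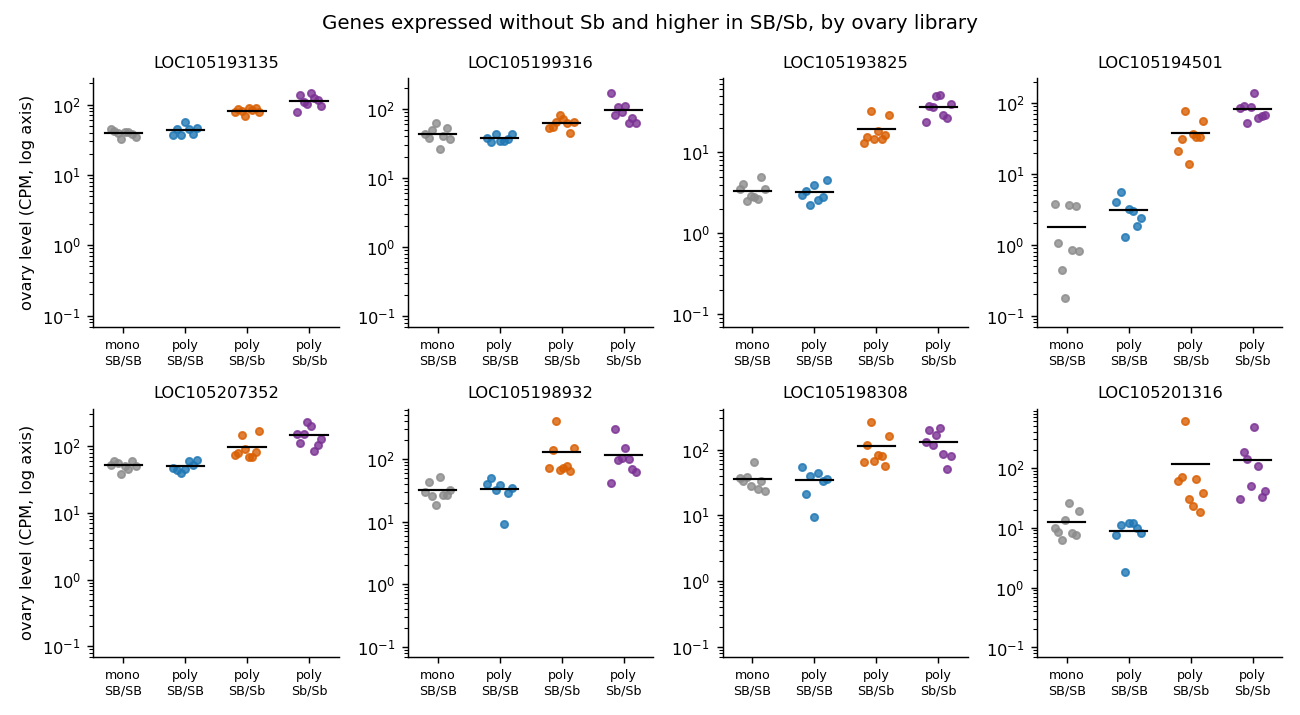
Ovary levels in CPM (log axis) of 8 genes that were expressed without Sb and higher in SB/Sb, by library and group as labelled; bars are group means. LOC105193135 is even within each group, while LOC105201316 ranges from 18.4 to 608 CPM among SB/Sb ovaries.

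Only 6 genes were lower with 1 Sb copy, and 3 of these lie on chromosome 16. LOC105203065, which had the highest CPM of the 6, lay at 436 CPM in 107E, 437 in 19D, 529 in 30E, 552 in 20D, 582 in 15D, 647 in 1E and 710 in 16D, against 156, 287 and 395 CPM (lowest, median, highest) in SB/Sb. The groups did not overlap, and the level in SB/Sb was lower by a factor of 2 (log2 -1.0 ± 0.18 SE; edgeR, adjusted p = 0.014). LOC105203027 showed a difference of similar size, with 151 to 261 CPM in SB/SB and 73.8 to 148 CPM in SB/Sb (log2 -0.98 ± 0.18 SE; edgeR, adjusted p = 0.0145). Both were called in all 15 fits that left 1 library out. With the shallow library 104D added LOC105203065 was no longer called (edgeR, adjusted p = 0.0906), and with 15A and 5A both left out LOC105203027 was not (edgeR, adjusted p = 0.0691). Over 12 other settings of method, filter, covariate or libraries, the call held in 9 for LOC105203065 and in 11 for LOC105203027. The lowest SB/Sb value of both genes was in 15A.

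LOC105207586, the other lower gene of chromosome 16, was weakly expressed, at 0.744 to 3.04 CPM in SB/SB and 0.0435 to 0.628 CPM in SB/Sb (log2 -2.48 ± 0.50 SE; edgeR, adjusted p = 0.0324). Its call held in 4 of the 15 fits, those without 107A, 30A, 5A or 15D. The other 3 lower genes were nearer the threshold, each called in 2 of the 15 fits: LOC105195480 without 19A or 30A, LOC105208117 without 16C or 1E, and LOC105194329 without 20A or 1E. LOC105195480, on chromosome 10, fell from 35 ± 9.61 CPM (SD, n = 7) to 17.7 ± 4.58 CPM (SD, n = 8), with an edgeR adjusted p of 0.0359. LOC105208117, on chromosome 1, fell from 73.7 ± 5.57 CPM (SD, n = 7) to 44.8 ± 11.7 CPM (SD, n = 8), with an edgeR adjusted p of 0.0441. LOC105194329, also on chromosome 1, fell from 179 ± 21 CPM (SD, n = 7) to 126 ± 19.1 CPM (SD, n = 8), with an edgeR adjusted p of 0.0451, and was the only lower gene whose groups overlapped.

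**Figure D4:**
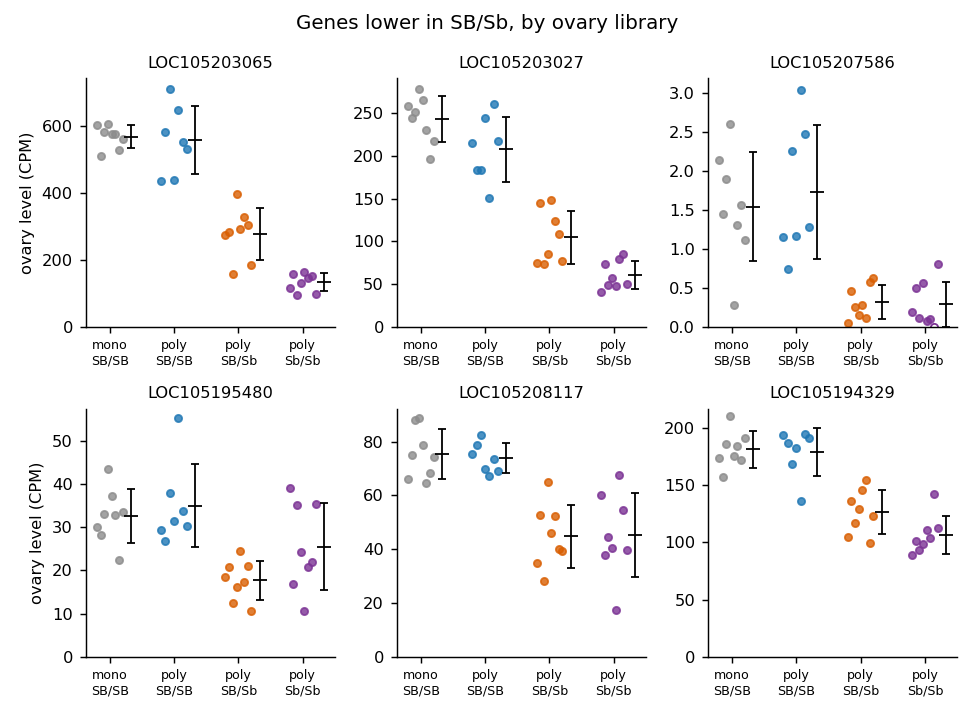
Ovary levels in CPM of the 6 genes called lower in SB/Sb, by library and group, with the mean ± SD beside the points. LOC105203065 and LOC105203027 are lower in every SB/Sb ovary than in any polygyne SB/SB ovary, and their Sb/Sb means of 132 and 60.2 CPM are lower again.

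Most called genes lay outside the chromosome that carries the supergene. Chromosome 16 held 15 of the 80, 12 higher and 3 lower of 762 genes tested there, so that 1.97% of its genes were called. Chromosomes 1 to 15 held 45 higher and 3 lower of 8149 (0.589%), and genes without a chromosome 17 higher and 0 lower of 1299 (1.31%). These shares are descriptions, since genes of the supergene are inherited together and are not independent. The median log2 fold change of chromosome 16 was 0.015, against -0.016 on chromosomes 1 to 15.

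Along chromosome 16 the calls were uneven. In the order of its 1233 genes, places 1 to 400 held 0 called genes, among 145 tested in places 1 to 200 and 148 tested in places 201 to 400. Each of these stretches held 1 gene at which every SB/Sb ovary lay above every SB/SB ovary, and the fit of 31 ovaries called 1 higher gene in the first and 3 in the second. Places 601 to 800 held 5 higher genes and 1 lower among 112 tested, and places 801 to 1000 held 5 higher and 2 lower among 127. Places 401 to 600 and 1001 to 1200 held 1 higher gene each, and places 1201 onward held none of 24 tested. The limits of the supergene are not given in the sources used here, so no gene is placed inside or outside it.

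The chromosome 16 genes ranged from near silence to high expression. LOC105199315, at place 720, lay at 0 CPM in 15D, 16D, 19D and 30E, 0.0608 in 1E, 0.524 in 107E and 0.62 in 20D, and at 8.27 to 20.9 CPM in SB/Sb (log2 6.17 ± 0.77 SE; edgeR, adjusted p = 0.000502). Its neighbour LOC105199316, at place 721, was already at 33 to 43.4 CPM in SB/SB and rose to 45.5 to 81.7 CPM (log2 0.74 ± 0.13 SE; edgeR, adjusted p = 0.0149). Adjacent genes thus rose by very different factors. LOC105194501, at place 953, rose from 1.29 to 5.63 CPM in SB/SB to 14 to 76.8 CPM in SB/Sb (log2 3.63 ± 0.40 SE; edgeR, adjusted p = 0.000132). LOC105193825, at place 1173, rose from 2.26 to 4.55 CPM to 13 to 32.1 CPM (log2 2.60 ± 0.26 SE; edgeR, adjusted p = 8.52e-05). All 4 had groups without overlap and were called in all 15 fits that left 1 library out. With 15A and 5A both left out LOC105199316 was no longer called (edgeR, adjusted p = 0.0691). Its call held in 9 of 12 other settings, and those of LOC105199315, LOC105194501 and LOC105193825 in all 12.

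**Figure D5:**
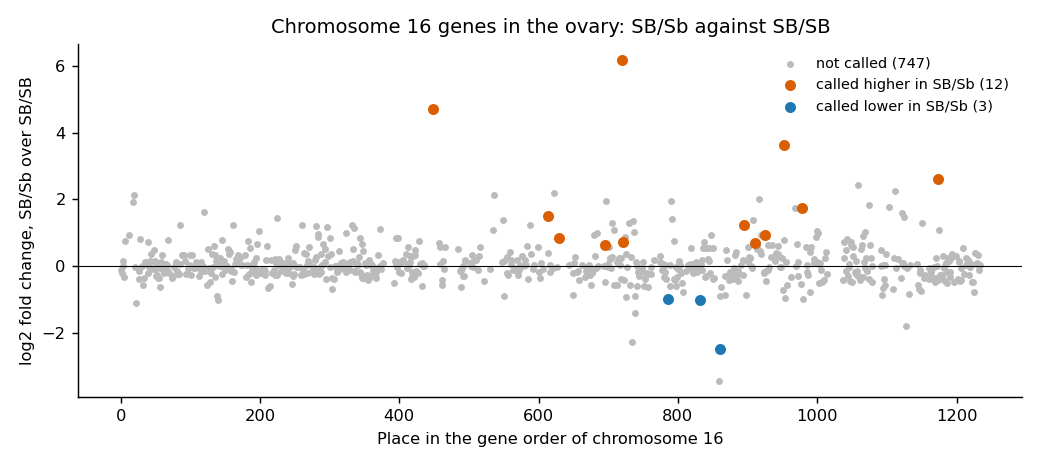
Log2 fold change in SB/Sb over SB/SB polygyne ovaries of the 762 genes tested on chromosome 16, by their place in the gene order of the UNIL_Sinv_3.0 assembly; orange marks the 12 genes called higher, blue the 3 called lower and grey the rest. No gene among places 1 to 400 was called in this fit of 15 libraries; the fit of 31 ovaries called 1 in places 1 to 200 and 3 in places 201 to 400.

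Some called genes stood within 10 places of each other in the gene order of a chromosome. How often genes in general stand so close to a called gene was not counted, so these places are a description only. Both members of such pairs were higher except on chromosome 10. There LOC105195484 was higher and LOC105195480, 4 places away, was lower. On chromosome 2 the adjacent genes LOC105206713 and LOC105205139, at places 1184 and 1185, were both near 0 without Sb. On chromosome 12, LOC105198306, LOC105198307 and LOC105198308 occupy places 794, 795 and 796. Their means rose from 8.7, 0.22 and 33.9 CPM in SB/SB to 75.9, 2.74 and 112 CPM in SB/Sb, and all 3 were highest in 15A. On chromosome 15, LOC105198878, LOC105201316 and LOC105198876 lie at places 62, 65 and 69. They too were highest in 15A, with 96.2, 608 and 179 CPM there and means of 8.66, 43.8 and 11.9 CPM in the other SB/Sb ovaries. Reads shared between near-identical neighbours could not be examined, so the levels within each of these clusters are uncertain. By annotated type, 3 of 118 long non-coding RNAs tested (2.54%) and 2 of 35 pseudogenes (5.71%) were called higher, and of 8782 protein-coding genes 51 were called higher and 6 lower (0.649%).

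None of the 9 genes that the gene table names by a synonym was called. The odorant-binding protein LOC105203994 came nearest, at 1.63 ± 0.787 CPM in SB/SB (SD, n = 7) and 3.72 ± 1.08 CPM in SB/Sb (SD, n = 8), a log2 fold change of 1.19 ± 0.32 (SE; edgeR, adjusted p = 0.124). In a fit of all 31 ovary libraries its adjusted p was 0.0158 (edgeR), and in DESeq2 it was 0.012. It was 0.0569 in limma voom and 0.171 in edgeR with log2 total count as a covariate. The gene was called in 0 of the 15 fits that left 1 library out. The other odorant-binding protein, LOC105195107, averaged 2.34 ± 0.94 CPM in SB/SB (SD, n = 7) and 5.6 ± 4.86 CPM in SB/Sb (SD, n = 8), with an edgeR adjusted p of 0.345. The insulin receptors, which pass on the signal that couples nutrition to growth and reproduction, varied more within the genotypes than between them. InR-1 (LOC105207962) averaged 3.28 ± 3.79 CPM in SB/SB (SD, n = 7) and 2.59 ± 2.56 CPM in SB/Sb (SD, n = 8), with an edgeR adjusted p of 0.928. InR-2 (LOC105195102) averaged 26 ± 25.4 CPM in SB/SB (SD, n = 7) and 19.8 ± 21.9 CPM in SB/Sb (SD, n = 8), with an edgeR adjusted p of 0.902.

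GSTS1 (LOC105197561), a glutathione S-transferase that acts in detoxification, averaged 462 ± 75 CPM in SB/SB (SD, n = 7) and 689 ± 463 CPM in SB/Sb (SD, n = 8), with an edgeR adjusted p of 0.495; without 15A, at 1739 CPM, its SB/Sb mean was 539 CPM. CYP6A14 (LOC105195645), a cytochrome P450, ranged from 5.81 to 61.9 CPM in SB/SB and from 1.52 to 112 CPM in SB/Sb, with an edgeR adjusted p of 0.742. CYP4AB2 (LOC105193893), another cytochrome P450, and the venom allergen family gene LOC105199703 had too few counts to be tested. Of 20 gene lists drawn up by product name or synonym, 18 matched 0 genes and could not be described, those for detoxification and for yolk among them, so the genes named by a synonym stand for no list there.

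The called genes were then followed into ovaries that share no library with the comparison, those of 8 Sb/Sb polygyne and 8 SB/SB monogyne gynes. Genotype and social form go together there and cannot be told apart. Of the 74 higher genes 72 were tested, and 71 (98.6%) were called higher in Sb/Sb, where 27.1% of all 10122 genes tested were called higher. The exception was LOC105195350. LOC105201567 and LOC105204265, which averaged 0.888 and 0.968 CPM in Sb/Sb, were not tested. A gene near 0 in every monogyne ovary passes the filter on low counts only through the Sb/Sb ovaries. For such genes, LOC105205139 and LOC105194018 among them, being tested nearly fixes the call, so the 98.6% is a description only. Of the 6 lower genes 5 were called lower (83.3%), where 17.3% of all genes were, and the exception was LOC105195480, at 25.5 ± 10.1 CPM in Sb/Sb and 32.6 ± 6.16 CPM in monogyne SB/SB (SD, n = 8 each; edgeR, adjusted p = 0.277).

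At the called genes the monogyne SB/SB ovaries lay on the side of the polygyne SB/SB ovaries. The monogyne mean lay below every SB/Sb ovary at 67 of the 74 higher genes and above every SB/Sb ovary at all 6 lower genes. The Sb/Sb mean was above the SB/Sb mean at 61 of the 74 higher genes and below it at 4 of the 6 lower genes. The SB/Sb ovaries set against these means also chose the genes. The same counts over all genes tested were not made, so these counts are descriptions only. LOC105205139 averaged 0 CPM in monogyne, 0.0468 in polygyne SB/SB, 11.6 in SB/Sb and 23 in Sb/Sb ovaries. LOC105193135 averaged 39.3, 43.5, 82.2 and 114 CPM in the same order, and LOC105203065 567, 556, 276 and 132 CPM. LOC105196479 differed in that its SB/Sb and Sb/Sb means were close, at 60.2 ± 15.9 and 66.9 ± 29.4 CPM (SD, n = 8 each). The differences between SB/Sb and Sb/Sb were not tested.

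In the brains of the same 15 animals, 8 of 10049 genes were called between SB/Sb and SB/SB (0.0796%), all 8 higher. Of the 74 genes higher in the ovary, 48 could be tested in the brain and 4 were called there, which is 8.33% of those tested and 50% of the brain's list: LOC105194018, LOC105204491, LOC105206713 and LOC105193135. At 40 of the 48 the brain difference had the same sign as in the ovary. How often signs matched over all genes was not counted. A gene not called in the brain can still differ there. For example, LOC105196479 lay at 0 to 5.24 CPM in SB/SB brains and 13.3 to 35.1 CPM in SB/Sb brains (edgeR, adjusted p = 0.633). LOC105194018 averaged 0.0567 ± 0.0877 CPM in SB/SB brains (SD, n = 7) and 7.15 ± 3.04 CPM in SB/Sb brains (SD, n = 8), with an edgeR adjusted p of 0.00468. LOC105193135 averaged 13.5 ± 2.5 CPM and 38.4 ± 11.3 CPM in the same groups, with an edgeR adjusted p of 0.0132. LOC105205139 averaged 0.665 ± 1.56 and 37.5 ± 17.4 CPM and just missed the threshold in the brain (edgeR, adjusted p = 0.0558). Of the lower genes 5 were tested in the brain and 0 were called, with the same sign as in the ovary at 3 of the 5. LOC105203065 averaged 284 ± 197 CPM in brains without Sb and 263 ± 109 CPM in brains with 1 copy, with an edgeR adjusted p of 0.999.

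Whether the effect of the Sb copy differed between ovary and brain was tested gene by gene in a fit of the 30 libraries with the animal as a block. The difference passed the test at 2 of 11262 genes (0.0178%), both on chromosome 16. LOC105194811, at place 990, had 0 counts in the 7 SB/SB brains and 1.14 to 3.67 CPM in the SB/Sb brains, but 139 to 208 CPM in the SB/SB ovaries and 59.7 to 141 CPM in the SB/Sb ovaries. The ovary difference alone did not pass the test (log2 -0.78 ± 0.18 SE; edgeR, adjusted p = 0.0506), and the ovary effect minus the brain effect was -9.56 ± 0.70 on the log2 scale (SE; edgeR interaction, adjusted p = 0.000115). LOC105194434, at place 946, rose in the brain from 0.298 ± 0.283 to 7.23 ± 2.38 CPM, with 14.1 ± 6.47 CPM in SB/SB and 13.9 ± 5.01 CPM in SB/Sb ovaries (difference of effects -4.94 ± 0.67 SE; edgeR interaction, adjusted p = 0.0039). The fitted size for LOC105194811 rests on a group with no counts and is no bound.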

How the data were processed

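The series holds 64 libraries, 1 per brain or ovary of 32 gynes. Per the labels' protocols, ovary RNA was extracted with a column kit and DNase, and libraries were made by Smart-seq2, which uses no molecular identifiers. Per the submitters' processing notes, Trimmomatic 0.32, STAR 2.5.3a and featureCounts were used; the version of the last, its strand setting and the genome build are not given in the sources used here. Raw counts per gene were deposited, with no normalization by the authors. Of 15710 genes listed, 15512 carry LOC symbols and were used; 198 transfer RNAs, with 0.000177% of the counts, were left out. Chromosomes and gene order came from a RefSeq table of UNIL_Sinv_3.0, which matched 11895 symbols; no coordinates or sequences are printed.

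Tests used edgeR 4.0.16 in R 4.3.3 (TMM, filterByExpr with the genotype as group and a minimum of 10 counts, quasi-likelihood F-test, Benjamini-Hochberg, adjusted p under 0.05) on the 15 libraries alone, and were tested on simulated data. CPM were scaled over the 31 ovaries without 104D, and brain CPM over the 15 brains. SE were derived from the F statistic. Alternatives used DESeq2 1.42.0, limma 3.58.1 and edgeR. Libraries of 11.8 to 21 M counts limit precision at genes near 1 CPM; floors and bounds cover counting error only. Named genes were, as far as that many were called, the 12 higher and 8 lower of smallest p (6 lower were called), the 4 of each direction with highest mean CPM, the 5 of each on chromosome 16 with smallest p (3 lower were called), the 9 genes with a synonym, and for each gene list its called or most abundant members; others were chosen after their values were seen. The genotype groups and gene lists were chosen with earlier results of these data known.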

Additional observations from a re-analysis of the deposited data

Results flagged for a closer look

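Single ovaries stood apart from their group at 16 of 70 sets of values examined, by a gap to the next library larger than Dixon's 95% critical value. Animal 15A, SB/Sb, was highest at 7 of them: 397 CPM of LOC105198932 (next 151), 608 CPM of LOC105201316 (next 70.3), 0.249 CPM of LOC105199703 (next 0), 4.62 CPM of CYP4AB2, LOC105193893 (next 0.875), 16.6 CPM of the odorant-binding protein LOC105195107 (next 6.98), 1739 CPM of GSTS1, LOC105197561 (next 978), and 12187 genes detected (next 11964). Among the other SB/Sb ovaries, 5A was highest for LOC105205051 at 5.02 CPM (next 2.67), 104A for InR-1, LOC105207962, at 8.18 CPM (next 3.7), and 16C both for InR-2, LOC105195102, at 70.3 CPM (next 30.2) and for the vitellogenin receptor, LOC105200757, at 551 CPM (next 251). Among the SB/SB ovaries, 1E was highest for LOC105196479 at 5.77 CPM (next 2.06), for LOC105206713 at 0.0608 CPM (next 0) and for LOC105195480 at 55.2 CPM (next 37.8). The SB/SB ovary 16D was lowest for LOC105201316 at 1.8 CPM (next 7.59), and in 15D the 10 most abundant genes took 7.98% of the counts (next 5.56%). The rule used values without a log and no correction for the number of sets, so these flags are descriptions only. Where all other libraries of the group had 0 counts, as for LOC105206713 and LOC105199703, any count is flagged.

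The effect of 1 Sb copy differed between ovary and brain at 2 genes of chromosome 16, by an edgeR interaction test. The ovary effect minus the brain effect was -9.56 on the log2 scale for LOC105194811 (adjusted p = 0.000115) and -4.94 for LOC105194434 (adjusted p = 0.0039).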

How the results depend on the processing

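The 80 calls became 243 in DESeq2 (215 higher, 28 lower), 191 in limma voom with quality weights (159 and 32) and 179 in a fit of 31 ovaries (165 and 14); DESeq2 held all 80, and each of the others 77. They became 34 where genes needed a mean of 50 counts or more and 41 where log2 total count was a covariate, and 81 with RLE factors (79 of them among the 80), 66 without the filter (61) and 80 with 104D added (69). Fits chosen after seeing the data gave 32 calls without 15A and 5A, and 179 with the leading component as a covariate (147 higher, 32 lower), which held all 80. Leaving out 1 library gave 32 to 88. The 6 title numbers shared by both genotypes have no stated meaning. Deviations of same-numbered ovaries correlated at 0.0853 to 0.578, and 2 of the 6 SB/Sb ovaries correlated best with their own number. For each of the 6, the same-numbered ovary ranked between 1 and 3 among the 7 SB/SB ovaries. Whether the numbers mark a pairing was not tested. In those 12 libraries a replicate block gave 22 calls (1226 genes at an unadjusted p under 0.05) and no block 30 (753). Brain calls were 21 in DESeq2 against 8. With 104D added, the difference in total counts was 1.48 M in place of -0.648 M. For named genes no log2 fold change reversed among those called; under other settings 207 of their values passed the threshold and 55 did not, and with 1 library left out 228 did and 100 did not. Depth limits the genes near 0: 3 counts in a library of 11.8 M lie under 1 CPM.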

Other observations

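LOC105201567, on chromosome 7, and LOC105204265, unplaced, were chosen after their values were seen. Both had a higher mean with 1 Sb copy than with 2, but the SB/Sb and Sb/Sb ovaries overlapped. LOC105201567 lay at 1.23 to 92 CPM in SB/Sb with a median of 4.91, at 0 to 0.106 CPM in SB/SB, and averaged 0.888 ± 1.08 CPM in Sb/Sb (SD, n = 8). Its Sb/Sb values ranged from 0 to 3.07 CPM. LOC105204265 lay at 1.16 to 136 CPM in SB/Sb, at 0 to 0.367 CPM in SB/SB, and averaged 0.968 CPM in Sb/Sb, with a range of 0.0947 to 3.5 CPM. The order of the SB/Sb ovaries was similar: both genes were highest in 15A, then in 20A at 26.5 and 41.9 CPM, then in 107A at 11.1 and 14.7 CPM. Without 15A the SB/Sb means were 7.33 and 10.8 CPM. Both were called in all 15 fits that left 1 library out (edgeR, adjusted p = 0.00581 and 0.014 with all libraries). The difference between SB/Sb and Sb/Sb was not tested.

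LOC105200758, which stands next to the vitellogenin receptor gene in the order of chromosome 2, was also chosen after its values were seen. It averaged 29 ± 3.61 CPM in SB/SB (SD, n = 7) and 43.2 ± 4.5 CPM in SB/Sb (SD, n = 8), without overlap (log2 0.59 ± 0.12 SE; edgeR, adjusted p = 0.0359), and was called in 3 of the 15 fits that left 1 library out. In the fit of 31 ovaries it was not called (edgeR, adjusted p = 0.162).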
